A study of Mus musculus with 24 samples.

Results

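Gene expression in satellite cells, which are muscle stem cells, was compared between muscle taken 2 days after injury and uninjured muscle (day 0). The samples are the 6 arrays whose titles name satellite cells on these days, 3 in each group, out of 24 arrays in the series. All came from the tibialis anterior of mice, and the injury was made with cardiotoxin, a snake venom toxin that lyses muscle fibres and leaves the stem cells in place. No genotype, strain or age was given in the sources used here, and day 0 muscle had not been injured. The sort kept cells without CD45, Sca1 or CD31 at their surface that carried alpha7-integrin and positive or low CD34. RNA was amplified from 750 pg per sample, and the values are log2 levels of one array each. The titles call the 3 arrays of a group biological replicates, but do not tie them to separate mice. The p-values therefore rest on the spread between arrays within groups, pooled over all 24 arrays of the series. Endothelial cells, gated as CD45-negative with Sca1, CD34 and CD31 present, are given for comparison, and their arrays share the estimate of spread in the fit.

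In resting muscle, satellite cells lie beneath the basement membrane of the fibre in a quiescent state and express the transcription factor Pax7. After injury they leave quiescence, divide, and later differentiate under Myod1 and Myog, the myogenic transcription factors, while neutrophils and then monocytes and macrophages enter the tissue and clear dead fibres. Leukocytes carry CD45, encoded by Ptprc, so a CD45-negative sort is meant to leave them out.

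The titles and the other label fields disagreed. The cell type field differed from the title in 6 of the 6 arrays and the time point field in 4, and the titles, which match the source names, were followed. On day 0 the arrays carried the transcripts of satellite cells: Pax7 read 9.80, 8.76 and 9.28 on replicates 1, 2 and 3. On day 2 it read 4.67, 5.70 and 5.16, so that every day 2 array lay below every day 0 array (-4.10, SE 0.37, adjusted p = 6.80e-08). The day 2 mean was 5.17, and in endothelial cells the Pax7 mean was 4.90 on day 0 and 4.56 on day 2. The day 2 arrays also went against the CD45 gate. Ptprc read 3.13, 2.97 and 2.81 on day 0 and 9.82, 8.01 and 9.67 on day 2 (6.20, SE 0.79, adjusted p = 4.71e-06). The genes of the markers that the gate required moved differently from each other. Itga7, which encodes the alpha7-integrin chain, was 8.36 ± 0.60 (mean ± SD, log2, n = 3) on day 0 and 6.37 ± 0.32 on day 2, a 3.98-fold fall (adjusted p = 1.47e-05). Cd34 read 9.44, 9.31 and 9.26 on day 0 and 8.08, 10.33 and 8.79 on day 2, so the groups overlapped (-0.27, SE 0.37, adjusted p = 0.651). Pecam1, which encodes CD31 and should be absent from the sort, was 7.71 ± 0.51 on day 0 and 9.53 ± 1.10 on day 2 (1.83, SE 0.38, adjusted p = 0.000814). In a fit of the 6 arrays alone its adjusted p was 0.0528.

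Replicate 2 of day 2 stood apart from the other day 2 arrays. Over all genes tested, replicates 1 and 3 correlated at 0.944, and replicate 2 correlated with them at 0.863 and 0.869. It held less of the leukocyte transcripts and more of the endothelial and cell cycle transcripts. The mean level over the macrophage list was 6.16 on replicate 2 against 7.94 and 7.74 on replicates 1 and 3, and 3.64 to 3.93 on the day 0 arrays. The mean over the endothelial list was 8.21 on replicate 2 against 6.47 and 6.78, and over the mitosis list 6.29 against 5.33 and 5.46. The part of cell mixture in any result below was not tested. In sorted bulk samples fewer cells of a type and less RNA per cell cannot be told apart.

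A gene was called where limma's adjusted p lay under 0.05 and the log2 difference, day 2 minus day 0, was at least 1 in size, and the words rise and fall are kept for called genes. Of 14064 genes tested, 2888 were called (20.5%), of which 1528 were higher on day 2 (10.9%) and 1360 lower (9.67%). All 3 day 2 arrays lay above all 3 day 0 arrays for 2513 genes (17.9%) and below them for 2584 (18.4%). The median difference over all genes was -0.03. Genes were divided by hand into those known mainly from leukocytes, those made by leukocytes and by other cells, and all others. The lists behind this division were chosen with earlier results of these data known. Of 306 leukocyte-type genes tested, 251 rose (82.0%) and 4 fell, and their median difference was 3.06. Of 199 genes made by both, 124 rose (62.3%) and 11 fell, with a median of 1.52. Of the 13559 others, 1153 rose (8.50%) and 1345 fell (9.92%), with a median of -0.05. Without replicate 2 of day 2 the rises numbered 262, 125 and 1368 in the same order. A dim gene could enter the tests through the day 2 arrays alone, which favours a high share of rises among leukocyte-type genes. Without the filter 271 of all 408 leukocyte-type genes on the array rose and 4 fell, and 1181 of the others rose. Counts without the filter are also given beside the leukocyte lists.

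**Figure D1:**
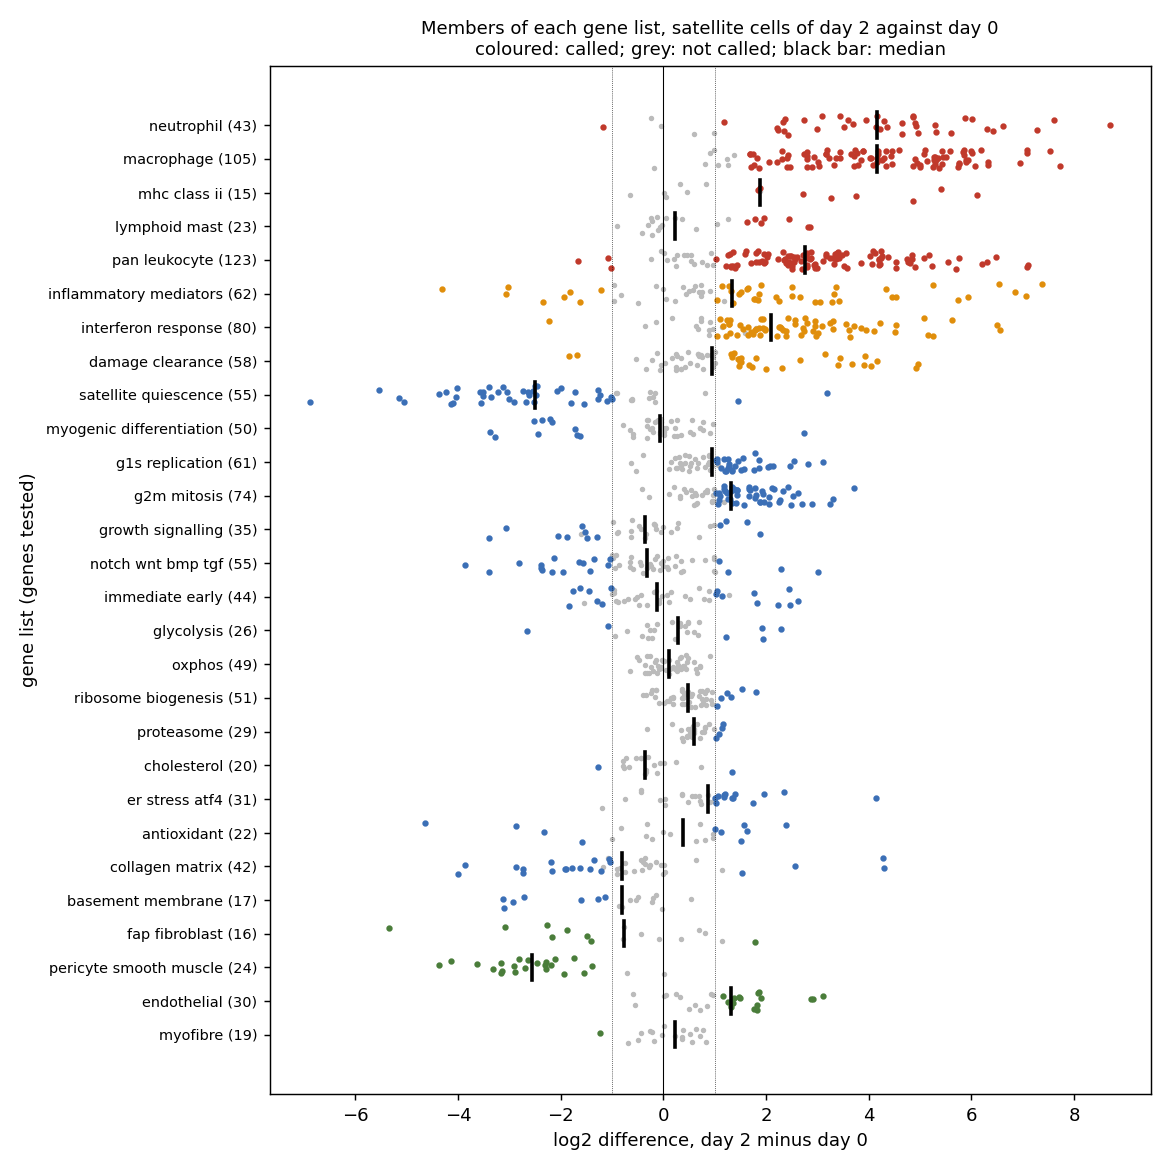
Log2 difference between day 2 and day 0 (x axis) for every tested member of 28 of the gene lists (y axis, with the number tested). Coloured points were called, grey points were not, and black bars are medians; red lists are leukocyte-type, orange lists are made by leukocytes and other cells, blue lists are other processes and green lists mark other cell types. The neutrophil and macrophage medians lie at 4.16 and the satellite cell median at -2.51.

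Replicate 2 also divided the genes that rose. It was the lowest day 2 array for 240 of the 251 leukocyte-type genes that rose (95.6%). Among the 1153 other genes that rose it was the lowest for 727 (63.1%) and the highest for 300 (26.0%). Over all tested genes it was the lowest for 36.7% and the highest for 40.0%.

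**Figure D2:**
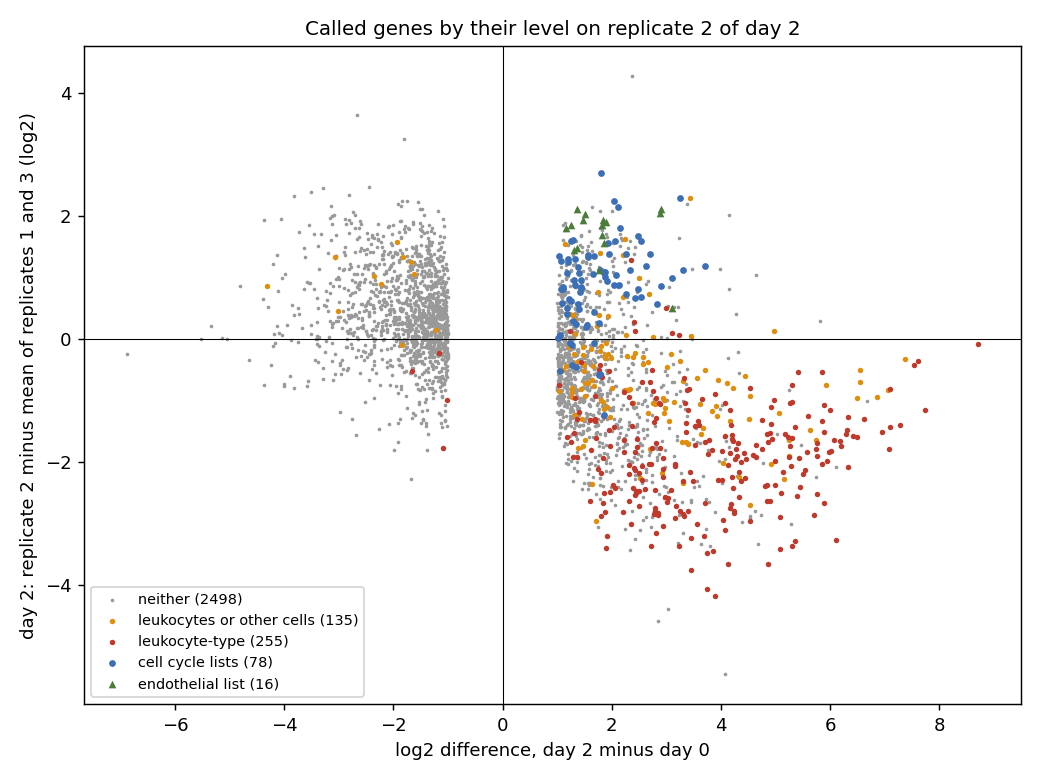
Each point is a called gene, with its log2 difference between day 2 and day 0 on the x axis and, on the y axis, the log2 level on replicate 2 of day 2 minus the mean of replicates 1 and 3. Leukocyte-type genes (red) lie mostly below 0, with a median of -1.86 for those that rose, while cell cycle genes (blue) and endothelial genes (green triangles), drawn over the class they belong to, lie mostly above 0.

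Leukocyte-type genes are given first. The largest rise of any gene tested was in a neutrophil transcript. S100a8, which encodes a subunit of the calcium-binding protein calprotectin, read 2.30, 2.20 and 2.05 on day 0 and 11.25, 10.84 and 10.59 on day 2 (8.71, SE 0.57, adjusted p = 6.14e-10). The day 0 values lie far below the array medians of 4.31 to 4.40, near background, so a fold could not be measured. S100a9, the partner subunit, read 3.43, 3.26 and 3.54 and then 11.63, 10.78 and 10.65 (7.61, SE 0.52). Replicate 2 was not the lowest array for either gene. Lilrb4a, an inhibitory receptor of myeloid cells, rose by 7.27 (SE 0.49) from 3.16 ± 0.81 to 10.43 ± 0.81, and Wfdc17 by 6.62 (SE 0.58). The neutrophil list shares Pirb with the macrophage list and holds genes of myeloid cells at large, such as Lilrb4a. Its counts therefore do not separate neutrophils from monocytes and macrophages. Of its 43 genes tested 38 rose and 1 fell. Of all 60 on the array, tested without the filter, 44 rose and 1 fell and the median was 2.96. The one that fell was G0s2, an inhibitor of triglyceride lipase that is also active outside leukocytes, at -1.17 (SE 0.27). Its difference was under 1 without day 0 replicate 3 (-0.89) or without day 2 replicate 3 (-0.97), and so no longer called.

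Monocyte and macrophage transcripts rose almost as a block. Ctss, which encodes the lysosomal protease cathepsin S, read 3.46, 3.20 and 2.92 on day 0 and 11.27, 10.15 and 11.35 on day 2 (7.73, SE 0.62, adjusted p = 1.16e-08). Ccr2, the receptor by which monocytes follow the chemokine Ccl2, read 3.54, 3.02 and 3.34 and then 11.08, 9.19 and 10.88 (7.08, SE 0.83). In both genes replicate 2 was the lowest day 2 array and still lay over 5 above every day 0 array. Il1b, the inflammatory cytokine interleukin-1 beta, reached 11.44, 10.57 and 10.55 from 3.32 ± 0.25 (7.54, SE 0.64), and Tyrobp, a signalling adaptor of myeloid receptors, 11.11 ± 0.47 from 4.02 ± 0.87 (7.09, SE 0.61). Of 105 genes tested 97 rose and 0 fell (0 lower also at an unadjusted p under 0.05), with a median of 4.16. Of all 126 on the array, 103 rose and 0 fell without the filter, with a median of 3.71.

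Genes of antigen presentation by MHC class II were listed together with genes of dendritic cells. Some of the list rose, and in those named here replicate 2 lay far below the other day 2 arrays. H2-Aa, a class II chain, read 3.73, 2.08 and 3.44 on day 0 and 10.30, 7.01 and 10.25 on day 2 (6.10, SE 0.94, adjusted p = 4.16e-05). Cd74, the invariant chain that guides class II molecules, read 10.87, 8.18 and 10.60 on day 2 against 4.48 ± 0.22 on day 0 (5.40, SE 0.74). H2-Ab1 (4.86, SE 0.94) and Plbd1 (3.75, SE 0.66), which does not encode a class II molecule, behaved alike. Each had replicate 2 more than 3 below the other day 2 arrays. Of 15 genes of the whole list tested 8 rose and 0 fell. Of all 24 on the array 9 rose without the filter, with a median of 0.76. Class II genes were not counted apart.

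Lymphocyte, natural killer and mast cell genes moved little as a group. Of 23 tested, 7 rose and 0 fell, and the median was 0.22. Of all 64 on the array, 6 rose without the filter and the median was 0.03. Ighm, the heavy chain of immunoglobulin M, rose by 2.81 (SE 0.57), with 8.45, 5.44 and 8.75 on day 2 against 4.74 ± 0.20. Klrd1, a receptor of natural killer cells, rose by 2.45 (SE 0.60) and Siglecf, known from eosinophils, by 1.96 (SE 0.28). Ccl5, a chemokine of T cells and macrophages, rose by 2.86 (SE 0.80, adjusted p = 0.00950), but its adjusted p was 0.0575 without day 2 replicate 1 and 0.0570 without day 2 replicate 3. Without day 2 replicate 3, 4 genes of the list rose.

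Genes common to most leukocytes rose in most cases. Cd52, a small surface glycoprotein, read 3.43, 3.32 and 3.91 on day 0 and 11.10, 9.70 and 11.16 on day 2 (7.10, SE 0.72, adjusted p = 2.72e-07). Lcp1, the actin-bundling protein L-plastin, read 3.55, 3.56 and 3.61 and then 10.60, 8.99 and 10.58 (6.49, SE 0.43). Laptm5, a lysosomal membrane protein of blood cells, rose by 6.30 (SE 0.84) to 11.42 ± 0.89. Of 123 such genes tested 104 rose and 3 fell. Those that fell were Traf3ip3 (-1.66, SE 0.23), the adaptor Blnk (-1.09, SE 0.37) and Rhoh (-1.01, SE 0.31). Blnk and Rhoh were not called without day 0 replicate 1 (adjusted p 0.0890 and 0.130) or without day 2 replicate 2 (0.251 and 0.112), and Blnk was also lost without day 0 replicate 2 (0.104). Without the filter 112 of all 137 rose and 3 fell.

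**Figure D3:**
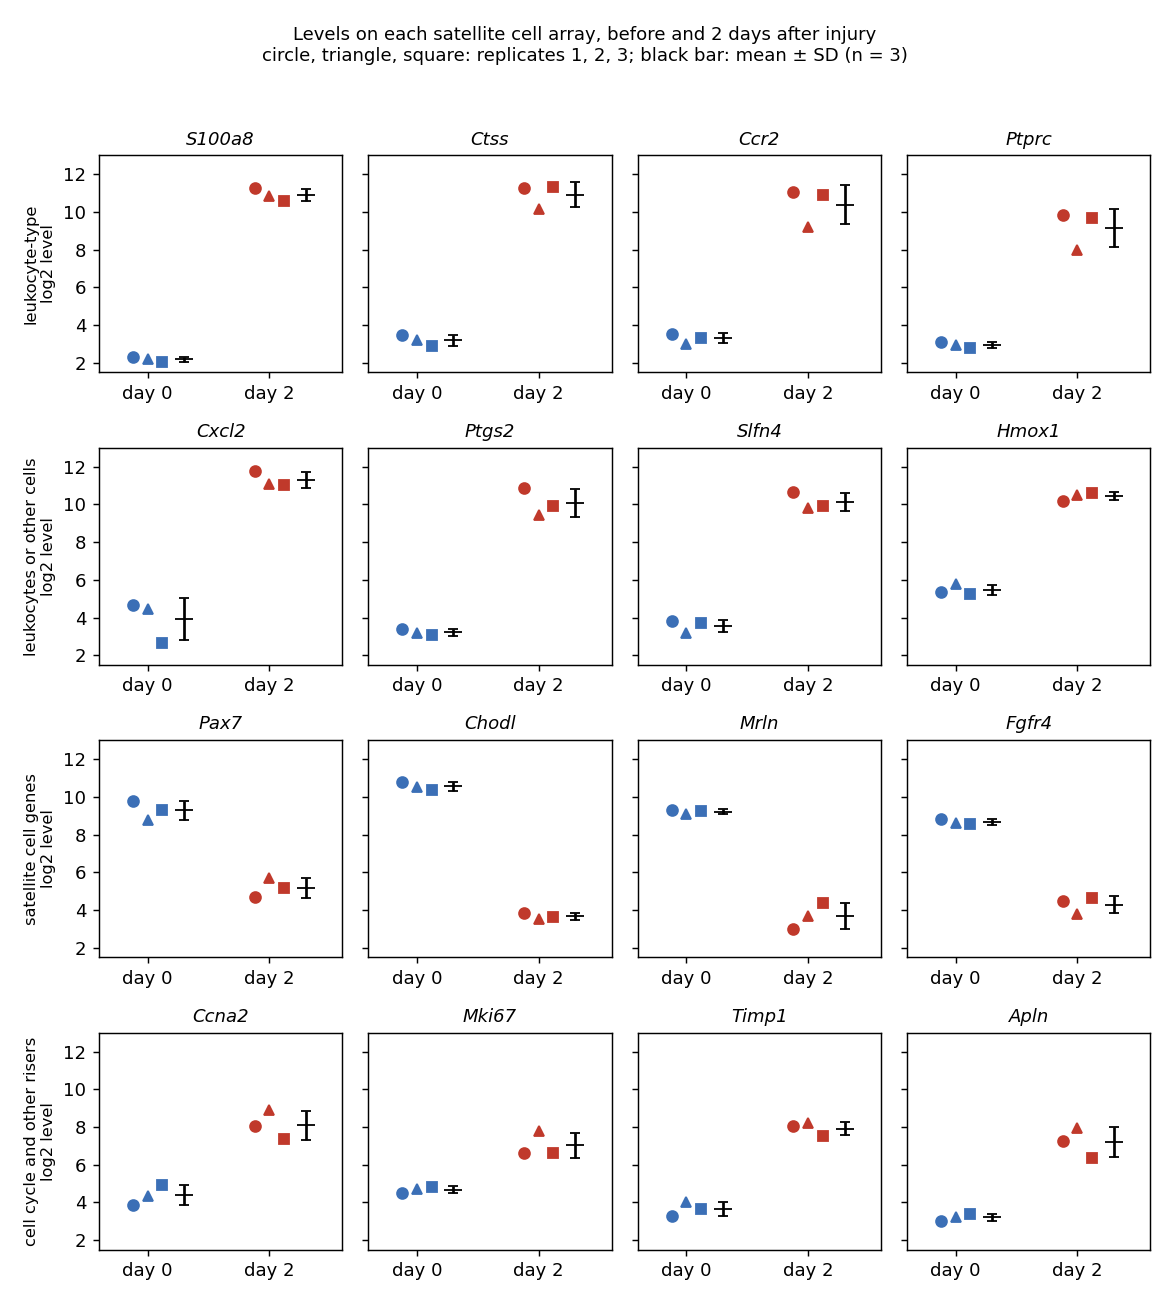
Log2 level (y axis) of 16 genes on each satellite cell array of day 0 (blue) and day 2 (red); circle, triangle and square are replicates 1, 2 and 3, and the black bar is the mean ± SD of 3 arrays. For each gene drawn, every day 2 array lies beyond every day 0 array, and the triangle of day 2 is lowest for Ctss, Ccr2 and Ptprc and highest for Ccna2, Mki67 and Apln.

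Among genes made by leukocytes and by other cells, chemokines and prostaglandin synthesis stood highest. Cxcl2, a chemokine that attracts neutrophils, read 4.69, 4.44 and 2.68 on day 0 and 11.80, 11.09 and 11.05 on day 2 (7.38, SE 0.52, adjusted p = 1.98e-09). Ccl3 read 4.37, 3.29 and 3.42 and then 11.26, 10.20 and 10.83 (7.07, SE 0.45). Ccl2, the ligand of Ccr2, read 4.33, 5.17 and 4.93 and then 11.66, 10.89 and 11.52 (6.54, SE 0.41). The day 2 arrays lay within 1.1 of each other for these chemokines. Ptgs2, the inducible cyclooxygenase, reached 10.88, 9.43 and 9.89 from 3.22 ± 0.17 (6.85, SE 0.63).

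Of 62 inflammatory mediators tested 35 rose and 8 fell, with a median of 1.34. The largest falls were in genes that were bright in the uninjured sort. Ccl19, a chemokine of stromal cells that guides lymphocytes and dendritic cells, read 10.60, 10.69 and 9.67 on day 0 and 4.67, 6.58 and 6.77 on day 2, a 19.8-fold fall (adjusted p = 0.00153). Il34, a ligand of the macrophage growth factor receptor, fell by 3.06 (SE 0.54), Ccl11, or eotaxin, by 3.02 (SE 0.58) and the adhesion molecule Vcam1 by 2.35 (SE 0.38).

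The promoters of the genes that rose were searched for the kappaB site, the binding motif of the inflammatory factor NF-kB, as GGGA and TTTCC with any 1 base between them, on either strand. Promoters (250 bases before to 50 bases after the start, RefSeq, build GRCm38.p6) were on hand for 10895 of the 14064 genes tested. The motif stood in 5 of the 26 inflammatory mediators that rose and had a promoter (19.2%), against 0.523% of all 10895. The 5 were Il6, Cxcl2, Csf1, Nfkbia and Nfkb2, named here after the match was seen. The 130 bases before the start are shown for a chemokine and for Nfkbia, the inhibitor of NF-kB that NF-kB itself induces, with the match in capitals. Nfkbia was 8.79 ± 0.33 on day 0 and 9.83 ± 0.45 on day 2 (1.04, SE 0.22), close to the minimum difference: it was 0.86 without day 0 replicate 3 and 0.78 without day 2 replicate 1, which ended the call. The Cxcl2 stretch is chr5:90903769-90903898, on the plus strand, and the Nfkbia stretch is chr12:55492648-55492777, on the minus strand.
Cxcl2: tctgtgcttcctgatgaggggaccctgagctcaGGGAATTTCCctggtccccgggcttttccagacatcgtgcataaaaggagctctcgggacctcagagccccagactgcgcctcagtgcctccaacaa
Nfkbia: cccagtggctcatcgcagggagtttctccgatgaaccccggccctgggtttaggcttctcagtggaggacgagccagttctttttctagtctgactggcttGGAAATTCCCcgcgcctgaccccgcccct
A match is a run of letters and does not show that a factor was bound. The lists were written by hand around known responses, and members that did not rise were not compared. An excess over all promoters can therefore come with the list itself and does not tie a motif to the day 2 change. The same limits hold for the other motifs below.

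Interferon response genes rose in a larger share than the other lists of their class. Of 80 tested 65 rose and 1 fell, with a median of 2.09. The mean level over the list was 5.27 to 5.48 on the day 0 arrays and 7.75, 7.39 and 7.89 on day 2, so replicate 2 was closer to the others than for the macrophage list. The largest rises were in the Schlafen gene Slfn4 (6.56, SE 0.37, from 3.58 ± 0.32 to 10.13 ± 0.47) and in Ifi204, a sensor of DNA of the PYHIN family, which read 2.03, 2.70 and 2.61 on day 0 and 9.38, 8.30 and 9.15 on day 2 (6.49, SE 0.62). Slfn2 (5.62, SE 0.48) and Ifi205 (5.25, SE 0.85) followed. Ms4a4d fell by 2.23 (SE 0.45).

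The interferon-stimulated response element (ISRE), searched on either strand as 2 copies of GAAA with any 2 bases between them, stood in 27 of the 53 genes of this list that rose and had a promoter (50.9%), against 3.73% of all promoters. Among the macrophage genes that rose it stood in 10 of 75 (13.3%) and among the satellite cell genes that fell in 2 of 29 (6.90%). The 3 promoters shown, with matches in capitals, belong to classical members of the response, chosen for their match. Rsad2, which encodes the antiviral protein viperin, was 4.74 ± 0.51 on day 0 and 8.45 ± 0.29 on day 2 (3.71, SE 0.40), Isg15, a ubiquitin-like protein, rose by 2.95 (SE 0.41), and Ifit1, which binds viral RNA, by 2.25 (SE 0.60). The stretches are chr19:34640759-34640888 on the plus strand for Ifit1, chr4:156200819-156200948 on the minus strand for Isg15 and chr12:26456453-26456582 on the minus strand for Rsad2.
Ifit1: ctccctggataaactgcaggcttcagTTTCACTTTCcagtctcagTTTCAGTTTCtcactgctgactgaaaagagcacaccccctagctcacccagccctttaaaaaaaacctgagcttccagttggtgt
Isg15: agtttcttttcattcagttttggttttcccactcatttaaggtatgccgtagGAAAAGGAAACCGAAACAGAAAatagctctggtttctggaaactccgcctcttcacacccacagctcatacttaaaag
Rsad2: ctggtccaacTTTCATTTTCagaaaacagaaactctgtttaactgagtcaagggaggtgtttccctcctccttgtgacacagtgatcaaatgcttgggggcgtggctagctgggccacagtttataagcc
Ifit1 holds 2 matches, 104 and 85 bases before the start, and Isg15 holds 3 that overlap, between 78 and 66 bases before it.

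Genes of damage clearance, which take up, digest and detoxify cell debris, rose in 25 of 58 cases and fell in 2, with a median of 0.95. Hmox1, the haem-degrading enzyme haem oxygenase 1, read 5.37, 5.76 and 5.28 on day 0 and 10.20, 10.52 and 10.59 on day 2, a 31.3-fold rise (4.97, SE 0.23, adjusted p = 1.37e-11). Its day 2 arrays lay within 0.4 of each other, and replicate 2 was not the lowest. The lysosomal proteases Ctsc and Ctsh rose by 4.93 (SE 0.72) and 4.03 (SE 0.50), and the fatty acid carrier Fabp5 by 4.17 (SE 0.50), each with replicate 2 lowest. Gas6 and Mfge8, secreted proteins that bridge dying cells to phagocytes, fell by 1.84 (SE 0.24) and 1.67 (SE 0.39). In the fit of the 6 arrays alone Mfge8 had an adjusted p of 0.0827.

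Among genes not known from leukocytes, those of the satellite cell program fell together. Of 55 satellite cell and quiescence genes tested, 41 fell and 2 rose, with a median of -2.51. The mean level over the list was 7.44 to 7.51 on the day 0 arrays and 5.22, 5.69 and 5.30 on day 2. Chodl, which encodes the membrane lectin chondrolectin, read 10.80, 10.50 and 10.36 on day 0 and 3.87, 3.51 and 3.63 on day 2 (-6.88, SE 0.50, adjusted p = 3.45e-09). All 3 day 2 values lie below the array medians of 4.21 to 4.35, so the fall ended near background. Mrln, for myoregulin, an inhibitor of the muscle calcium pump, read 9.32, 9.07 and 9.27 and then 2.99, 3.69 and 4.39 (-5.53, SE 0.49). Clmn fell by 5.14 (SE 0.27) and Chrdl2, an antagonist of bone morphogenetic proteins (BMPs), by 5.04 (SE 0.31).

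Of the lineage's transcription factors, Pax7 and Myf5 fell, and Myod1 and Myog were not called. Myf5 read 9.17, 8.72 and 8.95 on day 0 and 5.81, 5.62 and 5.35 on day 2, a 10.2-fold fall (adjusted p = 1.19e-06). Myod1, which satellite cells raise on activation, read 7.52, 7.28 and 7.39 and then 6.82, 6.85 and 6.16. Its 3 day 2 arrays lay below all day 0 arrays, but its difference of -0.78 (SE 0.29, adjusted p = 0.0471) did not reach the minimum. Myog was 5.45 ± 0.28 on day 0 and 5.13 ± 0.13 on day 2 (-0.32, SE 0.34, adjusted p = 0.552). Its level was 9.74 on day 4 and 10.42 on day 8.

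Only Sdc3 and Met rose within the satellite cell list. Sdc3, the heparan sulphate proteoglycan syndecan-3, which macrophages and endothelial cells also make, read 6.16, 6.54 and 6.56 on day 0 and 9.77, 9.01 and 10.04 on day 2, a 9.08-fold rise (adjusted p = 1.95e-07). It was 9.54 in endothelial cells of day 0. Met, the receptor of hepatocyte growth factor, whose release wakes satellite cells, read 6.02, 6.79 and 6.06 and then 7.25, 7.93 and 8.04, a 2.74-fold rise (adjusted p = 0.00645). It was 3.78 in endothelial cells of day 0 and 4.33 on their day 2, and it rose on satellite cell arrays on which Pax7 fell.

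Genes of myogenic differentiation and of the muscle fibre moved less. Of 50 tested, 10 fell and 1 rose, and the median was -0.07. Casq2, the calcium store protein calsequestrin 2, read 9.05, 10.05 and 10.00 on day 0 and 5.93, 7.32 and 5.70 on day 2, a 10.4-fold fall (adjusted p = 8.92e-06). Musk, the receptor kinase of the neuromuscular junction, fell by 3.27 (SE 0.33), Tnnt1, slow troponin T, by 2.51 (SE 0.33) and Chrnb1, an acetylcholine receptor subunit, by 2.44 (SE 0.40). The gene that rose was Cdkn1a, which encodes the cell cycle inhibitor p21 and is active in many cell types. It read 7.64, 7.38 and 7.03 on day 0 and 10.54, 9.26 and 10.47 on day 2, a 6.67-fold rise (adjusted p = 1.58e-06). Without day 2 replicate 1, 2 genes of the list rose.

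The 12 largest falls outside the leukocyte class held genes of several cell types. Beside Chodl, Mrln, Clmn, Chrdl2 and Ccl19, they included Fgfr4, a receptor of fibroblast growth factors that satellite cells carry, which read 8.83, 8.61 and 8.55 on day 0 and 4.46, 3.79 and 4.62 on day 2 (-4.37, SE 0.25). Zim1, an imprinted zinc finger gene, fell by 4.30 (SE 0.30), and Gpx3, the secreted glutathione peroxidase, by 4.65 (SE 0.44), a 25.1-fold fall from 11.26 ± 0.28 to 6.61 ± 0.25. Dpt, a matrix protein of fibroblasts, read 10.97, 10.41 and 10.42 and then 4.97, 5.40 and 5.40 (-5.34, SE 0.54). Abca8a, a lipid transporter, fell by 4.80 (SE 0.29), and Cnn1 and Olfr78, both known from smooth muscle of vessels, by 4.37 (SE 0.55) and 4.39 (SE 0.38). In 9 of the 12 the day 2 mean was below 5, so their falls are cut short by background.

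These genes differed in how far they had returned on the later days, which is described here without a test. The day 4 mean lay within 1 of the day 0 mean for 2 of the 12, Fgfr4 (8.41) and Zim1 (7.88). By day 8 it did for 5, with Mrln at 9.09, Dpt at 9.85 and Olfr78 at 6.43 added. Chodl was at 6.79 on day 4 and 9.44 on day 8. Clmn remained near background on both days, at 3.00 and 2.85. Pax7 itself was 8.46 on day 4 and 8.13 on day 8.

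**Figure D4:**
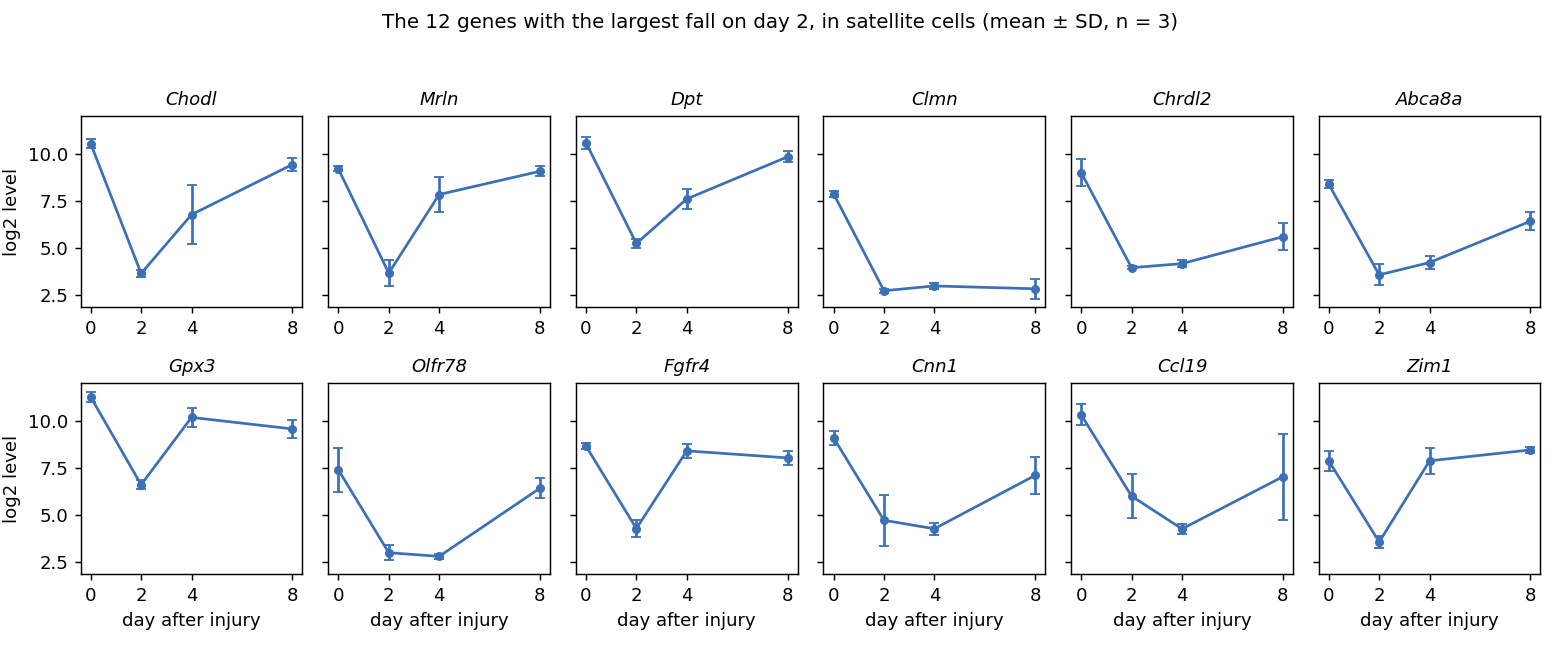
Log2 level (y axis, mean ± SD of 3 arrays) of the 12 genes outside the leukocyte class with the largest fall on day 2, in satellite cells of days 0, 2, 4 and 8 after injury (x axis). All 12 were chosen for their low value on day 2; Fgfr4 and Zim1 are back near their day 0 level by day 4, while Clmn stays below 3.1.

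Receptors and signals of growth fell more often than they rose. Of 35 growth signalling genes tested, 8 fell and 4 rose, with a median of -0.36. Fgfr1, the other main receptor of fibroblast growth factors in satellite cells, read 9.12, 8.36 and 8.71 on day 0 and 5.43, 5.51 and 5.04 on day 2 (-3.40, SE 0.40, adjusted p = 1.53e-06). Igfbp5 and Igfbp6, which bind insulin-like growth factors, fell by 3.06 (SE 0.69) and 1.88 (SE 0.39), and Irs1, the adaptor of the insulin receptor, by 2.05 (SE 0.27). Dusp6 and Dusp5, phosphatases induced by ERK signalling, rose by 1.63 (SE 0.21) and 1.88 (SE 0.45). Dusp6 read 7.09, 7.30 and 7.76 and then 8.80, 9.12 and 9.11, with replicate 2 highest, while Dusp5 had replicate 2 lowest. Nrg1, an ErbB ligand, rose by 1.23 (SE 0.28). The fourth, Igfbp3 (1.11, SE 0.40, adjusted p = 0.0411), overlapped between the groups and had an adjusted p of 0.294 without day 2 replicate 2, 0.147 without day 0 replicate 2 and 0.132 without day 0 replicate 3.

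Among 55 genes of Notch, Wnt, BMP and TGF-beta signalling, 15 fell and 4 rose, with a median of -0.33. The largest falls were in ligands and their binding proteins: Bmp6 (-3.87, SE 0.36), Bmp5 (-3.39, SE 0.47), Tgfb3 (-2.81, SE 0.53) and Ltbp1 (-2.39, SE 0.38). Bmp6 read 7.60, 7.34 and 7.70 on day 0 and 3.16, 3.66 and 4.20 on day 2. Tgfb1 went the other way. It read 5.86, 5.81 and 5.21 on day 0 and 8.68, 8.07 and 9.18 on day 2, an 8.12-fold rise (adjusted p = 3.60e-08), and macrophages are a known source of it. Lfng, which modifies Notch receptors, rose by 2.30 (SE 0.33). The other risers were Mfng (1.25), lost without day 0 replicate 2 (adjusted p = 0.0787) or day 2 replicate 3 (0.124), and Sfrp2 (1.08), which had an adjusted p of 0.379 without day 2 replicate 3, 0.143 without day 0 replicate 1, 0.0734 without day 0 replicate 2 and 0.0623 without day 0 replicate 3. Without day 0 replicate 2, and in the fit of the 6 arrays alone, 2 genes of the list rose.

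Immediate early genes, which answer dissociation and stress within minutes, were already bright on day 0. Of 44 tested 9 rose and 7 fell, with a median of -0.12. Jun read 11.39, 11.03 and 10.73 on day 0 and 9.12, 8.91 and 9.60 on day 2, a 3.58-fold fall (adjusted p = 1.37e-05). Egr1 fell 2.74-fold from 11.31 ± 0.32 to 9.86 ± 0.21, and Jund fell by 1.62 (SE 0.30). Hspa1a, an inducible heat shock protein, fell by 1.76 (SE 0.65, adjusted p = 0.0481), but was lost without replicate 2 or 3 of either day, with adjusted p up to 0.209 (day 0 replicate 3). In the fit of the 6 arrays alone 4 genes of the list fell. Dusp2, Gadd45b and Nr4a2 rose by 2.63 (SE 0.45), 2.45 (SE 0.47) and 2.24 (SE 0.43), each with replicate 2 lowest. Fosl1 rose by 2.46 (SE 0.46), with 6.49, 7.10 and 6.17 on day 2 against 4.13 ± 0.13, and there replicate 2 was highest.

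Cell cycle genes rose, and at an unadjusted p under 0.05, 1 of them was lower. Of 74 genes of G2, mitosis and cytokinesis 49 rose, with a median of 1.32, and of 61 genes of S phase entry and DNA replication 29 rose, with a median of 0.94. Without replicate 2 of day 2 the counts were 35 and 24. Ccna2, or cyclin A2, read 3.87, 4.35 and 4.92 on day 0 and 8.06, 8.89 and 7.34 on day 2 (3.72, SE 0.32, adjusted p = 3.58e-08). Mki67, which encodes the proliferation antigen Ki-67, read 4.49, 4.73 and 4.83 and then 6.65, 7.78 and 6.65 (2.34, SE 0.33). Cdk1, the mitotic kinase, read 4.11, 4.14 and 3.97 and then 6.50, 8.85 and 6.60 (3.24, SE 0.49). Replicate 2 was the highest day 2 array for each, the reverse of the leukocyte genes, and replicates 1 and 3 still lay above every day 0 array.

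Other cell cycle genes followed. The DNA topoisomerase Top2a rose by 3.31 (SE 0.31) and the mitotic kinesin Kif23 by 2.90 (SE 0.34). Among replication genes Rrm2, a subunit of ribonucleotide reductase, rose by 3.11 (SE 0.29), the chromatin remodeller Hells by 2.82 (SE 0.33), Uhrf1, which maintains DNA methylation, by 2.54 (SE 0.41) and Gmnn, or geminin, by 2.47 (SE 0.43). The mean over the mitosis list was 4.19 to 4.36 on day 0, and on days 4 and 8 it was 6.11 and 6.01. Which of the cells in the day 2 sort were dividing was not tested.

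Promoter motifs of the cell cycle were searched next. The cell cycle genes homology region (CHR), bound by the DREAM complex and searched as TTTGAA on either strand, stood in 28 of the 39 G2 and mitosis genes that rose and had a promoter (71.8%), against 14.5% of all promoters. It stood in 4 of 23 replication genes that rose (17.4%), in 16 of 53 interferon genes that rose (30.2%) and in 9 of 29 satellite cell genes that fell (31.0%). The E2F site, searched as TTTCGCGC, stood in 5 of the 23 replication genes (21.7%) and in 0.734% of all promoters, and in 1 of the 39 mitosis genes (2.56%). The CCAAT box stood in 64.1% of the mitosis genes and in 42.1% of all promoters. The promoters shown are those of Cdk1 and of Cdc20, an activator of the anaphase-promoting complex, for the CHR, and of Mcm6, a subunit of the replicative helicase, for the E2F site, with matches in capitals. Cdc20 rose by 1.78 (SE 0.33) and Mcm6 by 2.14 (SE 0.29). They are chr10:69352913-69353042 (minus strand), chr4:118437344-118437473 (minus strand) and chr1:128359706-128359835 (minus strand).
Cdk1: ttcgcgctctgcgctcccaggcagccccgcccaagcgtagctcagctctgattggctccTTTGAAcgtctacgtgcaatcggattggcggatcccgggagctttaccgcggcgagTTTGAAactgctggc
Cdc20: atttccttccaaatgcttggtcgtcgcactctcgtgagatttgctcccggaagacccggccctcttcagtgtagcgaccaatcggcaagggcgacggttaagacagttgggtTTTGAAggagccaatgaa
Mcm6: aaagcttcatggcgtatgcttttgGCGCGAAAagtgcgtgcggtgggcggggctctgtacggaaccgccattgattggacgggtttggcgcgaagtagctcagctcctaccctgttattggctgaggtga
In the satellite cell genes that fell, the E-box CAGCTG, a preferred site of Myod1, stood in 3 of 29 (10.3%), against 18.4% of all promoters.

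In the housekeeping and cholesterol lists few genes were called, although the medians of ribosome biogenesis and proteasome genes lay above that over all genes (-0.03). Of 49 oxidative phosphorylation genes 0 were called by limma, their median was 0.11, and at an unadjusted p under 0.05, 9 were higher and 0 lower. Without day 0 replicate 2 or 3, 1 of them rose. Of 51 ribosome biogenesis genes 6 rose and 0 fell, with a median of 0.49, led by Noc2l (7.11, 6.40 and 6.59 on day 0, 8.41, 8.57 and 8.56 on day 2, adjusted p = 4.37e-05). The share that rose was close to the 10.9% over all genes tested. At limma's unadjusted p under 0.05, 24 of the 51 were higher and 0 lower. The share of all genes at that threshold was not counted, so the unadjusted counts of these lists have no background beside them. At limma's adjusted p under 0.05 with no minimum difference, 2073 of all 14064 genes were higher and 1899 lower. Nhp2, a protein of small nucleolar particles, rose by 1.54 (SE 0.56, adjusted p = 0.0444), but was lost without day 0 replicate 2 or 3 or without any one day 2 array, with adjusted p up to 0.138 (day 2 replicate 2). Of 29 proteasome genes 4 rose, where 10.9% of all genes did, and 0 fell, with a median of 0.60. At limma's unadjusted p under 0.05, 20 of the 29 were higher and 0 lower. Psmb7, a catalytic subunit, was the largest at 1.17 (SE 0.21). The other proteasome risers, Psmd7, Psmd14 and Psma1, were each lost when one array was left out, Psmd7 without day 0 replicate 1 (0.60), Psmd14 without day 2 replicate 1 (0.97) and Psma1 without day 0 replicate 1 (0.81) or day 2 replicate 3 (0.92). Of 20 cholesterol synthesis genes Ebp rose (1.33) and Fdft1 fell (-1.27), and both depended on single arrays. Ebp was lost without replicate 1 or 3 of either day, with adjusted p up to 0.198 (day 0 replicate 1). Fdft1 was lost without day 0 replicate 1 or 3 or day 2 replicate 2, with adjusted p up to 0.102 (day 2 replicate 2). The number that fell was 3 without day 2 replicate 1 and 2 without day 0 replicate 2.

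The glycolysis list had a share of called genes close to that over all genes tested (20.5%). Of its 26 genes tested 4 rose and 2 fell, with a median of 0.28, where 10.9% of all genes rose and 9.67% fell. Hk2, the inducible hexokinase, read 4.54, 4.19 and 4.19 on day 0 and 6.64, 5.50 and 6.63 on day 2 (1.95, SE 0.28), and Slc16a3, the lactate exporter MCT4, rose 4.90-fold from 5.73 ± 0.38 to 8.02 ± 1.16. Hif1a, the oxygen-regulated transcription factor, rose by 1.23 (SE 0.22) and Pfkfb3, an activator of glycolysis, by 1.92 (SE 0.54, adjusted p = 0.0506 without day 2 replicate 3). Ldhb, a lactate dehydrogenase chain, read 7.99, 8.72 and 8.57 and then 5.59, 6.01 and 5.74, a 6.26-fold fall (adjusted p = 2.80e-07). The other that fell was Ndrg1, a gene induced by low oxygen, at -1.08 (SE 0.27, adjusted p = 0.00390). Its difference was -0.99 without day 0 replicate 1 and -0.88 without day 2 replicate 3, so it was not called there.

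Genes of the stress response of the endoplasmic reticulum were listed together with genes of the transcription factor ATF4. Of the list, 13 of 31 genes rose and 0 fell, with a median of 0.87. Slc7a11, the cystine importer, read 2.51, 2.29 and 2.25 on day 0 and 7.81, 5.33 and 6.36 on day 2 (4.15, SE 0.43, adjusted p = 3.91e-07). Mthfd2, a mitochondrial folate enzyme, rose by 2.36 (SE 0.32), and the chaperone genes Sdf2l1 and Pdia6 by 1.97 (SE 0.34) and 1.74 (SE 0.24). Of 22 antioxidant genes 6 rose and 4 fell. Gpx1, the cytosolic glutathione peroxidase, rose 2.98-fold from 9.50 ± 0.37 to 11.08 ± 0.26, and the pentose phosphate enzymes Pgd, Taldo1 and Tkt by 2.39 (SE 0.26), 1.62 (SE 0.29) and 1.51 (SE 0.30). With Gpx3 fell Ephx1 (-2.88, SE 0.39), Gsta4 (-2.32, SE 0.27) and the secreted superoxide dismutase Sod3 (-1.59, SE 0.35).

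Matrix genes divided into many that fell and a few that rose strongly. Of 42 collagen and matrix genes 16 fell and 4 rose, with a median of -0.80. The small proteoglycan Prelp read 9.96, 9.49 and 9.67 on day 0 and 5.13, 5.19 and 6.81 on day 2, a 16.0-fold fall (adjusted p = 1.92e-06). Ogn fell by 3.86 (SE 0.47), Aspn fell by 2.87 (SE 0.54) and Mfap5 by 2.73 (SE 0.55). Timp1, the inhibitor of matrix metalloproteinases, rose instead, from 3.29, 4.03 and 3.64 to 8.03, 8.20 and 7.53 (4.27, SE 0.31, adjusted p = 2.60e-09), with replicate 2 highest. Vcan, the proteoglycan versican, read 4.76, 4.10 and 4.24 and then 9.53, 7.17 and 9.26 (4.29, SE 0.46). Fn1, or fibronectin, was 7.37 ± 0.20 and then 9.94 ± 0.84, a 5.93-fold rise, and Tnc, or tenascin-C, rose by 1.53 (SE 0.38). In the fit of the 6 arrays alone Tnc had an adjusted p of 0.0561.

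Of 17 basement membrane genes 7 fell and 0 rose, and without replicate 2 of day 2, 12 fell. Lama2, the laminin chain around muscle fibres, read 8.36, 8.84 and 8.71 on day 0 and 5.27, 6.11 and 5.24 on day 2, an 8.55-fold fall (adjusted p = 8.37e-06). Egflam, or pikachurin, fell by 3.12 (SE 0.56), Frem1 fell by 2.94 (SE 0.25) and the laminin chain Lamb2 by 2.71 (SE 0.28).

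Markers of other muscle cells moved in opposite directions. Of 24 pericyte and smooth muscle genes tested, 22 fell and 0 rose, with a median of -2.55. Their mean level was 8.85 to 9.73 on the day 0 arrays and 6.39, 7.78 and 6.64 on day 2. Kcnj8, a potassium channel of pericytes, read 9.85, 10.93 and 10.53 on day 0 and 6.13, 7.79 and 6.48 on day 2, a 12.4-fold fall (adjusted p = 1.24e-05). Vtn, or vitronectin, fell 17.6-fold from 10.87 ± 0.55 to 6.73 ± 0.33, and Myh11, the smooth muscle myosin, by 3.32 (SE 0.57). Their levels in the uninjured sort show that genes known from mural cells were bright there beside Pax7.

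Of 16 fibro-adipogenic progenitor and fibroblast genes tested, 7 fell and 1 rose. Beside Dpt fell Adamts5 (-3.08, SE 0.38), Serping1 (-2.27, SE 0.44) and Dcn, or decorin, which read 10.02, 10.02 and 10.10 on day 0 and 7.81, 7.88 and 7.95 on day 2 (-2.17, SE 0.50). The gene that rose was Pi16 (1.78, SE 0.43), whose adjusted p was 0.0855 in the fit of the 6 arrays alone. Without day 2 replicate 1, 2 genes of the list rose. Of 12 Schwann cell and neural genes 3 fell: Scn7a (-2.98, SE 0.31), Pmp22 (-1.82, SE 0.31) and Kcna1 (-1.54, SE 0.30). Without day 0 replicate 2, 5 of them fell.

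Endothelial genes rose, and replicate 2 held most of the change. Of 30 tested, 16 rose and 0 fell, and without replicate 2 of day 2, 9 rose and 1 fell. In the fit of the 6 arrays alone 7 rose. The mean level over the list was 5.92 to 5.97 on the day 0 arrays and 6.47, 8.21 and 6.78 on day 2, against 9.67 in endothelial cells of day 0. Emcn, or endomucin, read 4.43, 6.44 and 4.82 on day 0 and 7.28, 9.55 and 7.58 on day 2 (2.90, SE 0.48). Plvap rose by 2.88 (SE 0.47) and Mmrn2 by 1.90 (SE 0.44), each with replicate 2 highest. Cd93, which monocytes also carry, rose by 3.10 (SE 0.28) to 8.58, 9.17 and 8.75, an 8.59-fold rise with little spread.

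Of 7 tendon genes and 5 erythroid genes tested limma called 0, with 0 and 1 at an unadjusted p under 0.05, but without day 2 replicate 1, 2 erythroid genes rose. Of 19 mature fibre genes 1 fell, the muscle glycogen phosphorylase Pygm (-1.24, SE 0.40), whose adjusted p was 0.112 without day 2 replicate 1, 0.0602 without day 0 replicate 2 and 0.0644 without day 0 replicate 3. Of 3 platelet genes tested 2 rose, the chemokines Pf4 (5.42, SE 0.79), which macrophages also express, and Ppbp (2.54, SE 0.54). Without the filter 2 of all 10 on the array rose, with a median of 0.06.

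The 10 largest rises outside both leukocyte classes were not free of leukocyte genes, since the classes were lists written by hand. Plac8 read 3.45, 3.25 and 3.28 on day 0 and 10.24, 9.33 and 10.44 on day 2 (6.68, SE 0.74, adjusted p = 8.29e-07). C3ar1 and C5ar1, the receptors of complement fragments on myeloid cells, rose by 6.11 (SE 0.55) and 5.74 (SE 0.65), and Igsf6, known from the same cells, by 5.03 (SE 0.71). Ifi207 and Ifi209 belong to the PYHIN family of Ifi204 and rose by 5.47 (SE 0.89) and 5.28 (SE 0.85). Gm5150 rose by 4.76 (SE 0.63) and Rasgef1b by 4.73 (SE 0.57). For each of these replicate 2 was the lowest day 2 array. Gda, guanine deaminase, was bright in endothelial cells before injury (9.00) and read 3.72, 3.97 and 3.95 on day 0 and 9.69, 8.56 and 9.11 on day 2 of the satellite cell arrays (5.24, SE 0.26).

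The next 12 genes were picked after their values were seen, as the largest rises outside the classes for which replicate 2 was not the lowest array of day 2. AA467197, which is also among the 10 above, read 4.02, 3.02 and 2.56 on day 0 and 9.14, 9.21 and 8.67 on day 2 (5.81, SE 0.39, adjusted p = 8.12e-10). Apln, which encodes the peptide apelin, read 3.02, 3.23 and 3.41 and then 7.27, 7.96 and 6.38 (3.99, SE 0.44), and its receptor gene Aplnr read 4.41, 4.48 and 4.86 and then 6.35, 9.41 and 8.10 (3.37, SE 0.49). In endothelial cells Apln was 5.84 on day 0 and 10.13 on day 2, AA467197 was 3.67 and 10.40, and Aplnr was 9.58 and 10.12. Ctla2a (4.14, SE 0.62), Ctla2b (3.47, SE 0.43), Gm4070 (4.64, SE 0.42) and Parvb, a focal adhesion protein (3.47, SE 0.29), were also at 7.9 or more in endothelial cells of day 0.

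Some of these genes had narrow spreads on day 2. Parvb read 8.68, 8.84 and 9.02 there, and Casp4, the inflammatory caspase that senses bacterial lipid, read 7.96, 7.49 and 7.47 against 3.32 ± 0.39 (4.32, SE 0.36). The histone gene H2bc7 read 7.69, 8.60 and 7.89 against 3.91 ± 0.84 (4.16, SE 0.53). The decoy receptor gene Tnfrsf23 rose by 3.39 (SE 0.56), and Ccna2 and Timp1, given above, complete the set.

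Whether the response was particular to the satellite cell sort was asked by testing its difference from the response of endothelial cells between the same days. Over all genes tested this interaction had an adjusted p under 0.05 for 1669 (11.9%). Of the 36 genes named for the largest rises and falls it did for 30, but those genes were chosen for large differences in satellite cells, which enter the interaction, so the count is a description. Endothelial cells also gained leukocyte transcripts, to lower levels: S100a8 was 2.09 in endothelial cells of day 0 and 8.03 on day 2, and Ctss 3.40 and 8.65. The difference in response was 2.76 for S100a8 (adjusted p = 0.0284), and Ctss had an adjusted p of 0.0698. Chodl, at 4.14 and 3.02 in endothelial cells, differed by -5.76 (adjusted p = 2.52e-05). Its endothelial level on day 0 was near background, where a comparable fall could not appear. For such genes the test cannot show that a fall was particular to the satellite cell sort. For Mki67 the responses differed by less than their error (adjusted p = 0.956), with endothelial means of 4.72 and 6.99. Hmox1 was 7.66 and 9.79 in endothelial cells, and its rise was larger in the satellite cell sort (interaction adjusted p = 1.10e-05).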

How the data were processed

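The table deposited by the authors holds log2 values of 24479 probe sets on 24 single-colour arrays, made with RMA per the submitters' processing notes (background correction, quantile normalization and a summary per probe set); the version and the genome build are not given in the sources used here. A symbol was on hand for 23281 probe sets; 1198 without one were not analysed here. Values run from 1.29 to 12.9, and the number of arrays limits their precision. Groups follow the titles. Probe sets above their array's median on at least 3 arrays were kept, the brightest per symbol, leaving 14064 genes. limma 3.58.1 (R 4.3.3) estimated a mean for each of the 8 groups from all 24 arrays (eBayes, 16 residual degrees of freedom), with two-sided moderated tests adjusted by Benjamini-Hochberg over all genes; the script was tested on simulated data.

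The 32 gene lists (1529 genes) and the members were chosen with earlier results of these data known. Named genes were the 8 largest leukocyte-type rises, 6 rises of the shared class, 10 other rises and 12 non-leukocyte falls, all called without overlap between groups, 9 genes given whatever their values (Pax7, Myf5, Myod1, Myog, Itga7, Cd34, Mki67, Ptprc and Pecam1), and up to 4 called members per list and direction; genes shown for a promoter and 12 rises outside the classes were added after seeing the data. Differences are day 2 minus day 0. Folds are printed only for genes whose lower group mean exceeds every array median by 1 or more. List means cover all members on the array. Promoters and coordinates are those of RefSeq, build GRCm38.p6. Replicate numbers were checked as pairs: same-numbered day 0 and day 2 arrays correlated at 0.0294, 0.0104 and 0.00820 in group-centred values, so no pairing was used. The alternatives were other filters, arrays in the fit, scalings, variance settings, array weights, no minimum difference, a replicate block and leaving out each array.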

Additional observations from a re-analysis of the deposited data

Results flagged for a closer look

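For 30 of the 36 genes with the largest rises or falls, the change between days 0 and 2 differed between the satellite and endothelial cell sorts. The test was limma's interaction test (adjusted p under 0.05). The values that follow are the satellite cell response minus the endothelial response, on the log2 scale. Genes were chosen for their satellite cell response, so large differences were favoured by the choice.

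Among leukocyte-type genes the difference was 4.54 for Ccr2, 3.44 for Cd52, 3.12 for Il1b, 2.93 for S100a9, 2.76 for S100a8 and 2.46 for Lilrb4a. Among genes made by leukocytes and other cells it was 4.87 for Ifi204, 4.22 for Slfn4, 3.73 for Ptgs2, 2.69 for Ccl3 and 1.81 for Ccl2. Among other rises it was 5.66 for Gda, 4.38 for Plac8, 4.16 for Gm5150, 3.93 for Igsf6, 3.37 for C5ar1, 3.32 for C3ar1 and 2.68 for Rasgef1b. Gda was already at 9.00 in endothelial cells of day 0 and at 8.59 on day 2.

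Among falls the difference was -5.76 for Chodl, -5.48 for Dpt, -5.08 for Chrdl2, -4.91 for Mrln, -4.86 for Ccl19, -4.43 for Olfr78, -4.19 for Zim1, -4.14 for Cnn1, -4.08 for Fgfr4, -3.53 for Gpx3, -3.52 for Clmn and -3.38 for Abca8a. Chodl, Dpt, Chrdl2, Mrln, Ccl19, Olfr78, Cnn1, Fgfr4 and Clmn read 2.61 to 4.25 in endothelial cells of day 0. The medians of those arrays were 4.16 to 4.22, so a comparable fall could not appear there. Abca8a (4.51) and Gpx3 (5.91) lay higher. Their differences in the satellite cell sort were -4.80 and -4.65. Falls of that size in endothelial cells would end below the lowest value on any array (1.29), so they could not appear in full there either.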

How the results depend on the processing

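Under the 17 alternatives the counts of rises and falls, over all genes and in each class, stayed within 1.5 times those reported, apart from the 4 leukocyte-type falls. The lowest counts over all genes came from the fit of the 6 arrays alone (1176 rises, 1071 falls). Leaving out one array at a time gave 1351 to 1755 rises and 1207 to 1507 falls. With the replicate number as a block, 1544 genes rose and 1375 fell, of which 1522 and 1355 were shared with the fit without the block. Of 182 named genes 158 kept their call in every alternative, and those lost without one array are given in the report. Cd34, which was not called, changed sign without day 2 replicate 1; leaving out one array at a time gave -0.90 to 0.23. Myod1 was called without the minimum difference. Falls that end near background, and rises that start there, are understated.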
